A study of Mus musculus with 6 samples.

Results

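The C1q-like (C1ql), neurexophilin (Nxph) and cerebellin (Cbln) genes encode small proteins that neurons secrete at synapses. 10 of them were followed here: C1ql1, C1ql2, C1ql3, C1ql4, Nxph1, Nxph3, Nxph4, Cbln1, Cbln2 and Cbln4. They were taken by gene symbol from a deposited table of 23029 mouse genes, and all 10 were listed once. The symbols alone pick the rows, but the set was chosen on the RPKM levels of these same libraries, which were already known when it was proposed. The members' levels and differences are therefore given as a description without p-values. Where a member is said to be past the call rule used for all genes, that too is a description of values known beforehand and supports nothing. Tests are reported for genes outside the set.

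RNA came from cells of dorsal root ganglia (DRG), where somatosensory neurons have their somata, sorted by flow cytometry into 3 subsets with 2 libraries each. DP cells were IB4+GINIP+ and are labelled as Mrgprd+ neurons, a class of sensory neurons with free nerve endings in the skin. C-LTMR cells were IB4-GINIP+ and are labelled as C-fibre low-threshold mechanoreceptors. DN cells were IB4-GINIP-, the cells left outside both gates. IB4 is a plant lectin that binds many non-peptidergic pain neurons. All 3 subsets had the genotype GINIP+/mcherry, an mcherry allele of the gene for GINIP, so no subset came from animals without the reporter. Age, sex, treatment and the number of animals are unstated, and so is whether the 2 libraries of a subset came from separate animals: the p-values measure the spread between these libraries only, and the spread between them may be technical. In bulk RNA, fewer cells of a type and less RNA per cell cannot be told apart.

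The defining markers followed the labels. The summed level of 5 C-LTMR markers (Th, Slc17a8, Fam19a4, Zfp521 and Cacna1i) was 76.7 and 88.1 RPKM (reads per kilobase of gene, scaled to library depth) in DP, 1304 and 1306 RPKM in C-LTMR, and 35.5 and 17.2 RPKM in DN. That of 5 Mrgprd nociceptor markers (Mrgprd, Lpar3, Agtr1a, Prkcq and P2rx3) was 721 and 765 RPKM in DP, 37.9 and 35.99 RPKM in C-LTMR, and 22.5 and 24.4 RPKM in DN. Markers of peptidergic neurons, of glia and of endothelial cells, pericytes and fibroblasts were highest in DN, and the sum of the myeloid markers in DP. The 5 peptidergic neuron markers summed to 914 and 812 RPKM in DP, 1317 and 1233 RPKM in C-LTMR, and 8631 and 7823 RPKM in DN. Markers of myelinated neurons (Ntrk2, Ntrk3, Pvalb, Nefh and Necab2) summed highest in C-LTMR, but the genes in this sum differed. Their sum was 57.7 and 70.9 RPKM in DP, 111.6 and 103.5 RPKM in C-LTMR, and 100.9 and 74.7 RPKM in DN. Ntrk3 and Necab2 were highest in both C-LTMR libraries and Ntrk2 in both DN libraries, while Nefh and Pvalb overlapped between the subsets. The 7 glial markers summed to 713 and 1233 RPKM in DP, 1129 and 2075 RPKM in C-LTMR, and 7918 and 17629 RPKM in DN. The glial sum was higher in replicate 2 in each subset. The 8 endothelial, pericyte and fibroblast markers summed to 14.6 and 15.1 RPKM in DP, 4.66 and 5.72 RPKM in C-LTMR, and 454 and 652 RPKM in DN. The 8 myeloid markers summed to 224 and 251 RPKM in DP, 0.677 and 0.542 RPKM in C-LTMR, and 40.1 and 70.8 RPKM in DN. In DP and DN this sum came mostly from Lyz2, S100a8, S100a9 and Ngp. C1qb was highest in DN instead, and Csf1r, C1qa and C1qc were low in every library. Depth, estimated from the steps between low RPKM values, was 42.1 and 38.3 M (mega) reads in DP, 34.2 and 32.3 M in C-LTMR, and 39.0 and 32.3 M in DN.

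All 3 families act across the synaptic cleft. Neurexophilins bind alpha-neurexins, adhesion proteins of the presynaptic membrane. Cerebellins link neurexins to GluD receptors, and C1q-like proteins bind the adhesion receptor BAI3 (gene Bai3). Cerebellins and C1q-like proteins share the globular head of complement C1q but are not part of the complement cascade. The spinal cord neurons that receive the input of DRG neurons were not sampled.

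3 members, C1ql4, Nxph3 and Cbln2, were highest in both C-LTMR libraries, and 1, Cbln1, was near 1 RPKM in all 3 subsets. The other 6 stayed under 0.5 RPKM in every library. Summed over the 10 members, the level was 8.39 and 9.36 RPKM in DP, 100.4 and 103.1 RPKM in C-LTMR, and 5.37 and 4.49 RPKM in DN. C1ql4 made up 38.2% and 42.9% of that sum in DP, 62.7% and 56.3% in C-LTMR, and 1.17% and 0.529% in DN. In DN, Nxph3 held the largest share, 64.6% and 57.0%.

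**Figure D1:**
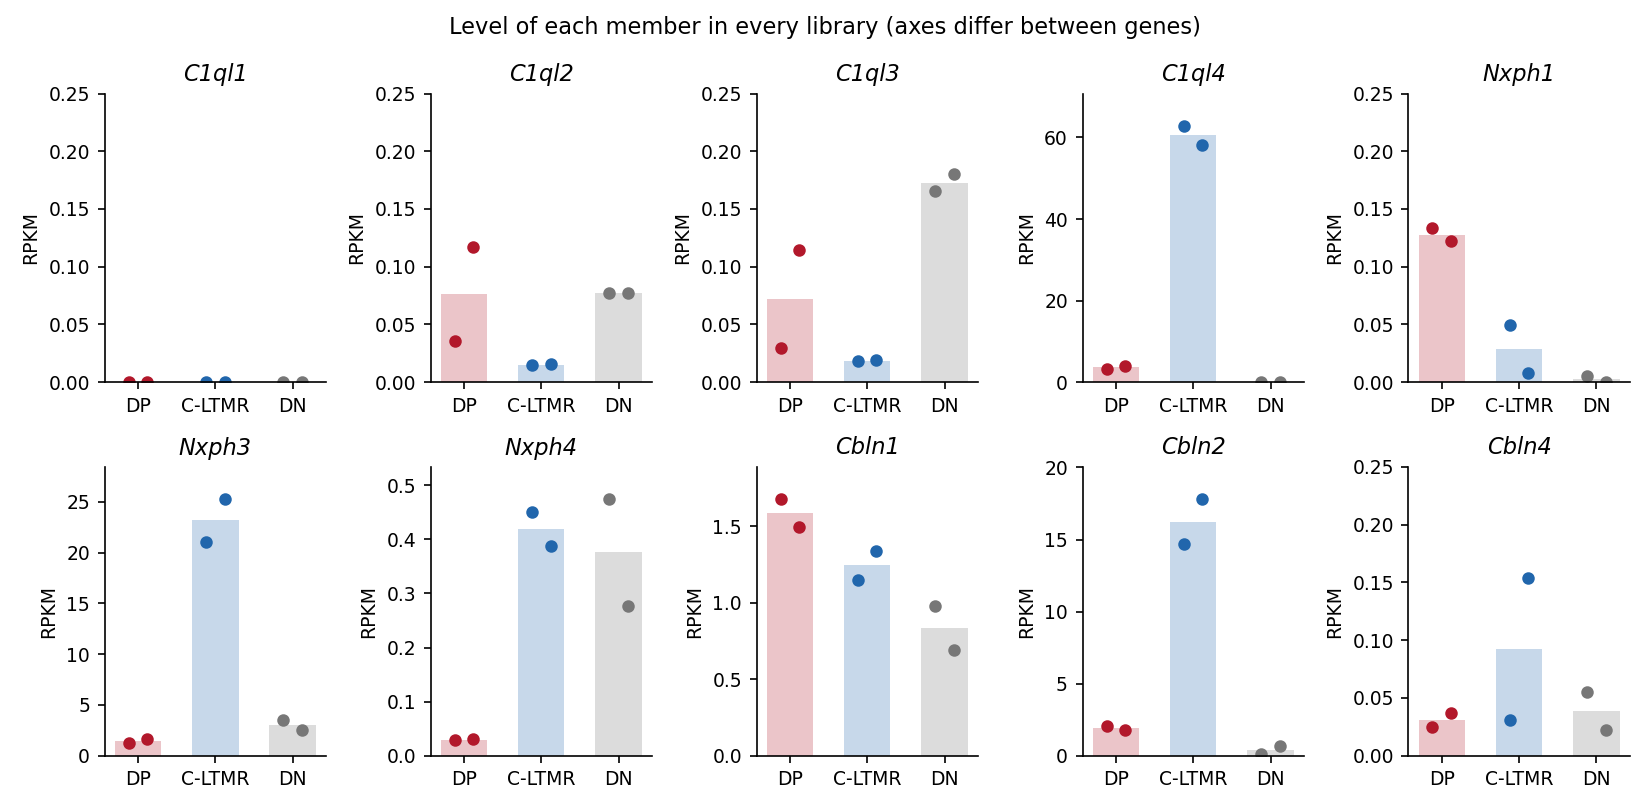
RPKM (vertical axis) of each of the 10 members in the DP, C-LTMR and DN subsets. Points are the 2 libraries of a subset, bars their mean, and the axes differ between genes: C1ql4 reaches 62.9 RPKM in C-LTMR, while C1ql1 is listed at 0 in all 6 libraries.

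Among the C1q-like genes, C1ql4 (Entrez 239659, GRCm38 chromosome 15, 99084754 to 99087728, minus strand) stood at 3.20 and 4.02 RPKM in DP, 62.9 and 58.1 RPKM in C-LTMR, and 0.0626 and 0.0238 RPKM in DN. Both C-LTMR libraries were above both DP libraries, and these above both DN libraries. Means were 3.61 ± 0.576 RPKM in DP, 60.5 ± 3.42 RPKM in C-LTMR and 0.0432 ± 0.0275 RPKM in DN (SD, n = 2 each). In C-LTMR its level exceeded that of 93.7% of all listed genes. About 96.7 and 110.4 reads lay behind the DP values and 1544 and 1345 behind the C-LTMR values. The DN values correspond to 1.75 and 0.550 reads, under the floor of 3 reads (0.107 and 0.130 RPKM), so no linear fold against DN is given. C1ql4 protein is a ligand of BAI3.

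The deposited C1ql4 model runs over 0.717 kb, from start codon to stop codon, with no untranslated exon sequence. The ratio of the 2 deposited tables gave the same length (0.717 kb), against 1.474 kb of annotated exons in GENCODE M21. Its RPKM is thus per coding length, unlike that of Nxph3 (2.093 of 2.099 kb of exons) or Cbln2 (2.201 of 2.894 kb), which bears on levels between genes and not on those between subsets.

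The DNA upstream of the annotated transcript starts is shown for C1ql4, the member highest in C-LTMR, and for its paralog C1ql2, which was near the detection floor. Both stretches are 161 bases from RefSeq's GRCm38.p6 promoter table, where 5 of the 10 members were matched. They run 5′ to 3′ on the gene's strand, with CpG dinucleotides in capitals. That of C1ql4 is chr15:99087818-99087978 on the minus strand and ends 1 base before the GENCODE start at 99087817, and that of C1ql2, which ends farther upstream, is chr1:120340332-120340492 on the plus strand.
C1ql4: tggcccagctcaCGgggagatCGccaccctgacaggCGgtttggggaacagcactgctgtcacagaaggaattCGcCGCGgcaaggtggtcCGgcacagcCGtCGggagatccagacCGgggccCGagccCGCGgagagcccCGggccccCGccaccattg
C1ql2: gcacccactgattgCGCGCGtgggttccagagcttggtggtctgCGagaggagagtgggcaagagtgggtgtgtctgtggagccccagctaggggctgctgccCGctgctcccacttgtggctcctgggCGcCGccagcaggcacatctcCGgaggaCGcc

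The C1ql4 stretch holds 15 CpG dinucleotides at 70.2% GC and the C1ql2 stretch 9 at 67.7% GC, against medians of 3 and 50.9% over the same 161 positions of all 32851 windows in the table. On either strand, neither stretch holds a GC box of the letters GGGCGG, which 18.2% of windows hold. Neither holds a TATA box of the letters TATAAA, found in 7.71% of windows, and neither holds the Runx core TGTGGT, found in 9.30%. The absence says only that these letters are not in these windows. The C1ql2 stretch ends at 120340492 and its GENCODE start is at 120340582, so the bases nearest that start were not searched. In the other matched members, the same positions held 2 GC boxes for Cbln4, 2 for C1ql3 and 0 for Nxph1. Of these windows, only that of Cbln4 lies upstream of its GENCODE start.

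The other C1q-like genes were close to the detection floor. C1ql2 (Entrez 226359, chromosome 1, 120340582 to 120343174), a kainate receptor organizer at mouse mossy fibre synapses, was at 0.0357 and 0.117 RPKM in DP, 0.0146 and 0.0155 RPKM in C-LTMR, and 0.0770 and 0.0775 RPKM in DN. These are between 1 and 8.98 reads per library. C1ql3 (Entrez 227580, chromosome 2, 13003454 to 13010864), with the same role, was at 0.0298 and 0.114 RPKM in DP, 0.0183 and 0.0192 RPKM in C-LTMR, and 0.165 and 0.180 RPKM in DN. Both C1ql3 values in DN were above those of the other subsets, at 10.3 and 9.26 reads. Exons of 2 genes on the opposite strand cover 685 bases of C1ql3, and the use of strand is not given, so its reads are uncertain. Of the 45 pairs of members, C1ql2 and C1ql3 were the 1 pair whose transcripts share a stretch of 36 bases. C1ql1 (Entrez 23829, chromosome 11, 102939264 to 102946461), a climbing fibre ligand of BAI3 in the mouse cerebellum, was listed at 0 in all 6 libraries, which allows up to 0.0572 to 0.0746 RPKM (3 reads, counting error only).

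Of the neurexophilins, Nxph3 (Entrez 104079, chromosome 11, 95509846 to 95514565, minus strand) was at 1.20 and 1.63 RPKM in DP, 21.1 and 25.3 RPKM in C-LTMR, and 3.47 and 2.56 RPKM in DN. The order was C-LTMR, then DN, then DP, with no overlap between the libraries of any 2 subsets. Means were 1.42 ± 0.304 RPKM in DP, 23.2 ± 2.98 RPKM in C-LTMR and 3.01 ± 0.641 RPKM in DN (SD, n = 2 each), and the C-LTMR level exceeded that of 85.9% of listed genes. Unlike C1ql4 and Cbln2, Nxph3 was lower in DP than in DN. Nxph3 protein is a high-affinity ligand of alpha-neurexins.

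Nxph4 (Entrez 104080, chromosome 10, 127525473 to 127534559), a more distant neurexophilin, was at 0.0284 and 0.0312 RPKM in DP, 0.451 and 0.388 RPKM in C-LTMR, and 0.474 and 0.277 RPKM in DN. The DP values rest on 2 reads each, while C-LTMR and DN overlapped at 15 to 31 reads. Nxph1 (Entrez 18231, chromosome 6, 8950019 to 9248578), the founding alpha-neurexin ligand of the family, had another order: 0.133 and 0.122 RPKM in DP, 0.0492 and 0.00781 RPKM in C-LTMR, and 0.00561 and 0 RPKM in DN. Its DP values rest on 10.0005 and 8.34 reads, and those of the other subsets on about 3 reads or fewer. Nxph2, the remaining paralog, was listed at 0 throughout.

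Of the cerebellins, Cbln2 (Entrez 12405, chromosome 18, 86713048 to 86718283, plus strand) was at 2.06 and 1.79 RPKM in DP, 14.7 and 17.8 RPKM in C-LTMR, and 0.0816 and 0.661 RPKM in DN. C-LTMR was highest and DN lowest, without overlap. The DN values rest on 7 reads in replicate 1 and 47.0 in replicate 2. DN replicate 2 also had the higher sums of glial, myeloid and endothelial, pericyte and fibroblast markers, whose part in the Cbln2 value was not tested. Means were 1.92 ± 0.185 RPKM in DP, 16.2 ± 2.20 RPKM in C-LTMR and 0.371 ± 0.410 RPKM in DN (SD, n = 2 each). Cbln2 protein joins neurexins to GluD receptors in many brain regions.

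Cbln1 (Entrez 12404, chromosome 8, 87468853 to 87472592, minus strand), the cerebellin of cerebellar granule cells, was at 1.68 and 1.496 RPKM in DP, 1.15 and 1.34 RPKM in C-LTMR, and 0.978 and 0.690 RPKM in DN. It descended in this order without overlap, but the steps were small: means were 1.59 ± 0.130 RPKM in DP, 1.24 ± 0.133 RPKM in C-LTMR and 0.834 ± 0.203 RPKM in DN (SD, n = 2 each). Cbln4 (Entrez 228942, chromosome 2, 172036336 to 172043466), which binds the netrin receptor DCC as well as neurexins, was at 0.0246 and 0.0373 RPKM in DP, 0.0313 and 0.154 RPKM in C-LTMR, and 0.0550 and 0.0221 RPKM in DN. A single library, C-LTMR replicate 2 at 13.9 reads, stood above the other Cbln4 values, and the subsets overlapped. Cbln3, the remaining paralog, reached at most 0.0380 RPKM.

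Differences between subsets were taken on log2(RPKM + 0.5), a scale that understates the change of low genes, from a single limma fit of the 13478 genes with at least 0.5 RPKM in at least 2 libraries. C1ql4, Nxph3, Cbln1 and Cbln2 passed that filter, 4 of the 10 members. Genes were called where the Benjamini-Hochberg (BH) adjusted p was under 0.05 and the log2 difference was 1 or more in size.

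In DP minus C-LTMR, the log2 difference was -3.90 for C1ql4 (SE 0.135), -3.63 for Nxph3 (SE 0.183), -2.78 for Cbln2 (SE 0.307) and 0.26 for Cbln1 (SE 0.151). As ratios of means, C-LTMR was 16.7-fold higher for C1ql4, 16.3-fold for Nxph3 and 8.44-fold for Cbln2. These 3 were past the call rule as lower in DP, and 0 as higher, against 6.77% of all genes tested called lower and 4.56% called higher (11.3% in either direction), a count that reads as description since the set was chosen with these levels known. The 2 subsets' libraries did not overlap, with DP lower, for 40.1% of all genes. The median over the 4 members was -3.21, against -0.04 over all genes tested.

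In DP minus DN, C1ql4 differed by 2.91 (SE 0.135), Cbln2 by 1.56 (SE 0.307), Cbln1 by 0.65 (SE 0.151) and Nxph3 by -0.87 (SE 0.183) on the log2 scale. The C1ql4 value depends on the pseudocount and the table, since DN was under 3 reads: it was 4.70 with a pseudocount of 0.1, 2.14 with 1 and 5.24 in the TMM-normalized table. C1ql4 and Cbln2 were past the call rule as higher in DP, as were 6.57% of all genes, and 0 as lower, as were 21.4% (28.0% in either direction). The libraries of the 2 subsets did not overlap, with DP lower, for 51.0% of all genes, and Nxph3 was the 1 such member above the filter. With DP higher the share was 32.0%, and C1ql4, Cbln1 and Cbln2 were such members. The Cbln2 difference was 1.06 without DN replicate 1 and 2.06 without DN replicate 2, and it was not past the rule with no filter on low values. Nxph3 came past the rule as lower in DP without DN replicate 2 (-1.06), without DP replicate 2 (-1.03), with a pseudocount of 0.1 (-1.04), after rescaling to pan-sensory-neuron genes (-1.15) and in the TMM-normalized table (-1.09). Cbln1 came past it under quantile normalization (1.36). The members' median was 1.11, against -0.15 over all genes.

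In C-LTMR minus DN, C1ql4 differed by 6.81 (SE 0.135), Cbln2 by 4.34 (SE 0.307), Nxph3 by 2.76 (SE 0.183) and Cbln1 by 0.39 (SE 0.151). The first 3 were past the rule as higher in C-LTMR, against 7.26% of all genes (27.1% in either direction), and this too is description. The C1ql4 value again moved with the pseudocount, to 8.74 with 0.1 and 5.88 with 1, and was 9.26 in the TMM-normalized table. Cbln1 turned to -0.16 when libraries were rescaled to pan-sensory-neuron genes. The members' median was 3.55, against -0.06 over all genes. With no filter, 0 of the other 6 members were past the rule in any comparison, their largest absolute log2 difference being 0.79. Each of these 6 lay below the pseudocount in every library, so its log2 difference could not reach the size the rule asks for. The 0 was thus fixed beforehand and says nothing about these members.

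**Figure D2:**
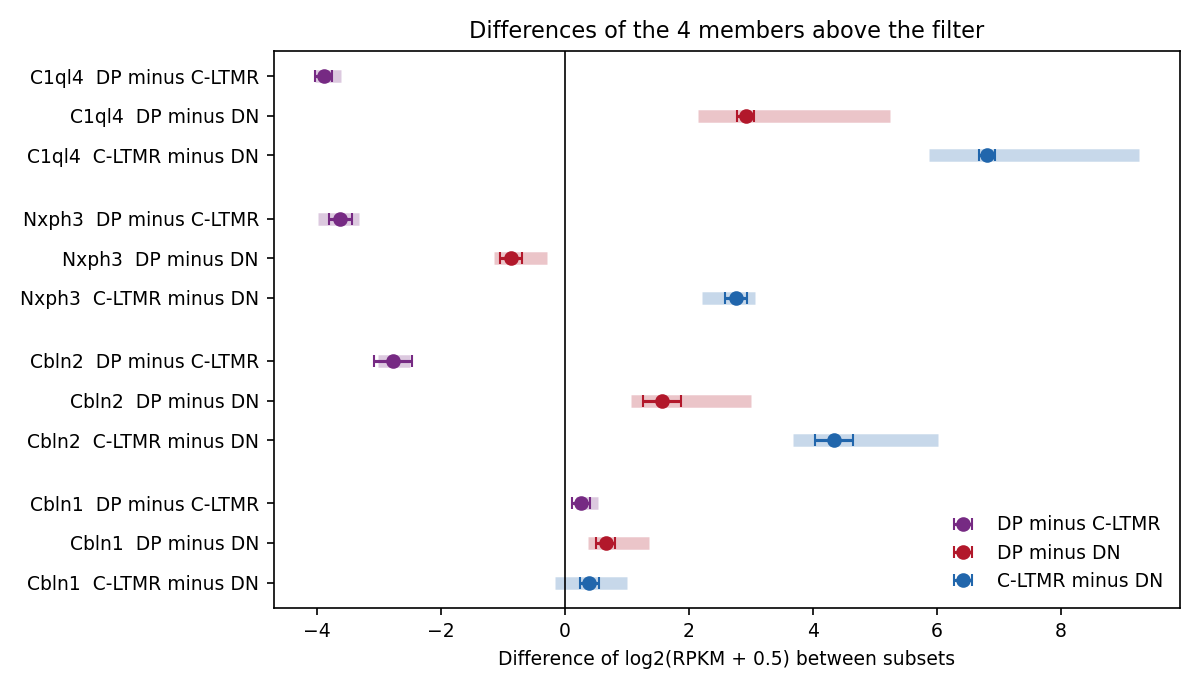
Differences between subsets for the 4 members above the filter, on log2(RPKM + 0.5) (horizontal axis). Points are the fitted differences with their SE, pale bands the range over all processing alternatives, some of which use another pseudocount or table: C1ql4 in DP minus C-LTMR stays between -4.04 and -3.62, and Nxph3 in DP minus DN lies between -1.15 and -0.29.

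Taken relative to the C-LTMR level, and not in RPKM, the members high in C-LTMR stood in DP close to the C-LTMR markers. This comparison was made after the levels were seen. As a percent of the C-LTMR mean, the DP mean was 5.97% for C1ql4, 6.12% for Nxph3 and 11.8% for Cbln2. For the markers it was 5.38% for Th, 5.52% for Zfp521, 5.83% for Cacna1i, 6.69% for Slc17a8 and 11.1% for Fam19a4. Cbln1, at 128%, lay apart. In the other direction, C-LTMR held 0.670% of the DP level of Mrgprd and 1.32% of that of Lpar3, but 20.5% of that of P2rx3. In DN, Cbln2 was at 2.29% of its C-LTMR level and Nxph3 at 13.0%, and no percent is given for C1ql4, which was under 3 reads in both DN libraries. The markers ranged from 0.122% for Cacna1i, at 3 and 6.99 reads, to 6.48% for Zfp521 in DN. Whether C-LTMR cells in the DP gate add to the DP levels was not tested.

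**Figure D3:**
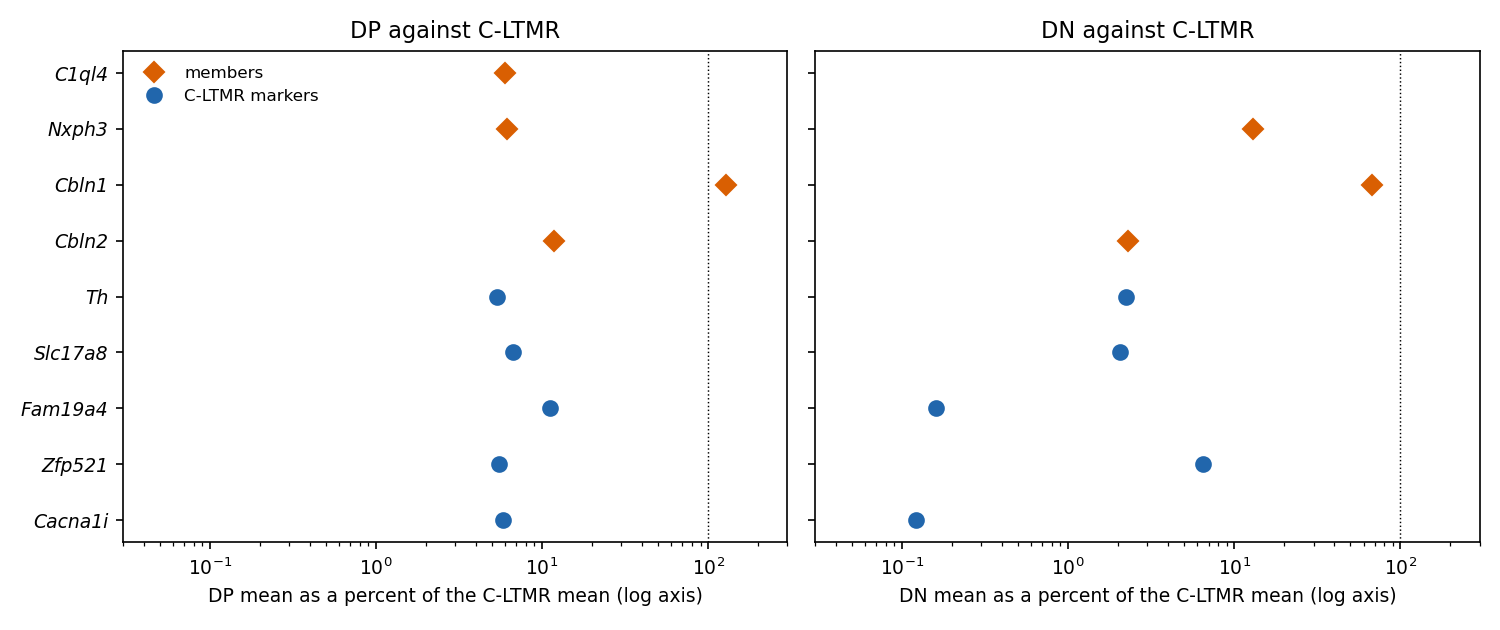
Mean level in DP (left) and in DN (right) as a percent of the C-LTMR mean, on log axes, for 4 members (diamonds) and 5 C-LTMR markers (circles). In DP, C1ql4, Nxph3 and Cbln2 (5.97% to 11.8%) lie in the range of the markers (5.38% to 11.1%) or just above it, while in DN Nxph3 (13.0%) lies above the markers. C1ql4 has no point in the DN panel because both DN libraries were under 3 reads.

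The genes whose profile over the 6 libraries was most like that of each member were found by the root mean square (RMS) difference of log2(RPKM + 0.5), each gene centred on its own mean, among 13474 genes. For C1ql4 these were Osta (RMS 0.219), P2ry1 (0.288) and Cckar (0.315). Osta was at 2.92 and 3.23 RPKM in DP, 56.8 and 59.1 RPKM in C-LTMR, and 0.113 and 0.191 RPKM in DN. For Nxph3 they were Kirrel3 (RMS 0.0674), Ak5 (0.0929) and Necab2 (0.147), the last also in the list of myelinated neuron markers. Kirrel3, an adhesion gene, was at 1.31 and 1.74 RPKM in DP, 19.8 and 24.9 RPKM in C-LTMR, and 3.63 and 2.44 RPKM in DN. For Cbln2 they were Gda (RMS 0.234), Ccl1 (0.242) and Fbp2 (0.317), and for Cbln1 Gng3 (0.0604), BC049762 (0.0605) and Nsl1 (0.0629). Cbln1 differed little between subsets on this scale, so a small RMS here marks genes that also differed little on it, whatever their level. Gng3 ran from 332 to 541 RPKM and Nsl1 from 0.146 to 0.673 RPKM.

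Genes for the known binding partners were tested in the same fit. Of 10 listed partner genes 8 were tested, and 0 were called in DP against C-LTMR (limma), beside 11.3% of all genes tested. With so few genes, 0 calls do not set the partners apart. An unadjusted p under 0.05 was reached by 4 and an adjusted p under 0.05 by 3: Nrxn3, Bai1 (log2 difference -0.87, limma BH-adjusted p = 0.00728) and Grik2 (0.99, limma BH-adjusted p = 0.01498). Bai1 was at 0.105 and 0.126 RPKM in DP against 0.684 and 0.563 RPKM in C-LTMR. Grik2 was at 0.668 and 0.663 RPKM in DP against 0.0480 and 0.125 RPKM in C-LTMR. Both are low genes, whose change the log2 scale used here understates. Nrxn2 was at 8.86 ± 0.257 RPKM in DP and 11.3 ± 1.66 RPKM in C-LTMR (log2 difference -0.32, limma BH-adjusted p = 0.126; SD, n = 2 each). Nrxn3 was at 7.32 ± 1.11 RPKM in DP and 11.5 ± 0.636 RPKM in C-LTMR (log2 difference -0.63, limma BH-adjusted p = 0.0105), under the size the call asks for. Bai3, the receptor gene for C1q-like proteins, was at 1.77 ± 0.0611 RPKM in DP and 1.89 ± 0.0651 RPKM in C-LTMR (log2 difference -0.07, SE 0.220, limma BH-adjusted p = 0.844).

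Against DN, Grid1, a GluD receptor gene, fell in both GINIP+ subsets. It was at 0.0555 and 0.191 RPKM in DP, 0.245 and 0.429 RPKM in C-LTMR, and 1.23 and 2.21 RPKM in DN. It was called lower in DP (log2 difference -1.80, limma BH-adjusted p = 0.000787) and in C-LTMR (-1.38, limma BH-adjusted p = 0.00276). Grid1 passed the filter only through its DN libraries, so a call against DN could hardly have been other than lower. Bai1, a relative of Bai3, was at 0.105 and 0.126 RPKM in DP against 1.21 and 0.816 RPKM in DN and was called lower (-1.29, limma BH-adjusted p = 0.000527). Of the kainate receptor subunits, Grik4 was at 18.4 and 16.5 RPKM in C-LTMR against 7.47 and 4.99 RPKM in DN and rose (1.44, limma BH-adjusted p = 0.000649), while Grik2 was at 0.0480 and 0.125 RPKM in C-LTMR against 0.711 and 1.41 RPKM in DN and fell (-1.38, limma BH-adjusted p = 0.00169). In all, 0 of the 8 partners were called higher and 2 lower in DP against DN, and 1 higher and 2 lower in C-LTMR against DN. Of all genes, 6.57% were called higher and 21.4% lower in DP against DN, and 7.26% higher and 19.8% lower in C-LTMR against DN. The partners' median log2 difference was -0.37 in DP minus C-LTMR (-0.04 over all genes), -0.03 in DP minus DN (-0.15 over all genes) and 0.11 in C-LTMR minus DN (-0.06 over all genes). The calls of Bai1 and Grik2 were lost with a pseudocount of 1 and, with that of Grid1 in C-LTMR, under quantile normalization. That of Grik4 was lost after rescaling to pan-sensory-neuron genes. Glial, endothelial, pericyte, fibroblast and peptidergic neuron markers were highest in DN too, and their part in these levels was not tested.

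The neurexin genes Nrxn2 and Nrxn3 and the receptor gene Bai3 were not called against DN. Nrxn2 was at 7.50 ± 0.901 RPKM in DN (log2 difference 0.23 in DP, limma BH-adjusted p = 0.183, and 0.56 in C-LTMR, limma BH-adjusted p = 0.0117), and Nrxn3 at 7.96 ± 0.288 RPKM in DN (-0.12 in DP, limma BH-adjusted p = 0.437, and 0.51 in C-LTMR, limma BH-adjusted p = 0.0123). Bai3 was at 1.21 and 2.25 RPKM in DN (0.07 in DP, limma BH-adjusted p = 0.801, and 0.14 in C-LTMR, limma BH-adjusted p = 0.6004). Dcc, the netrin receptor gene that Cbln4 protein can bind, was at most 0.0840 RPKM in any library. Its relative Neo1 lay between 4.003 and 5.89 RPKM in the 6 libraries.

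**Figure D4:**
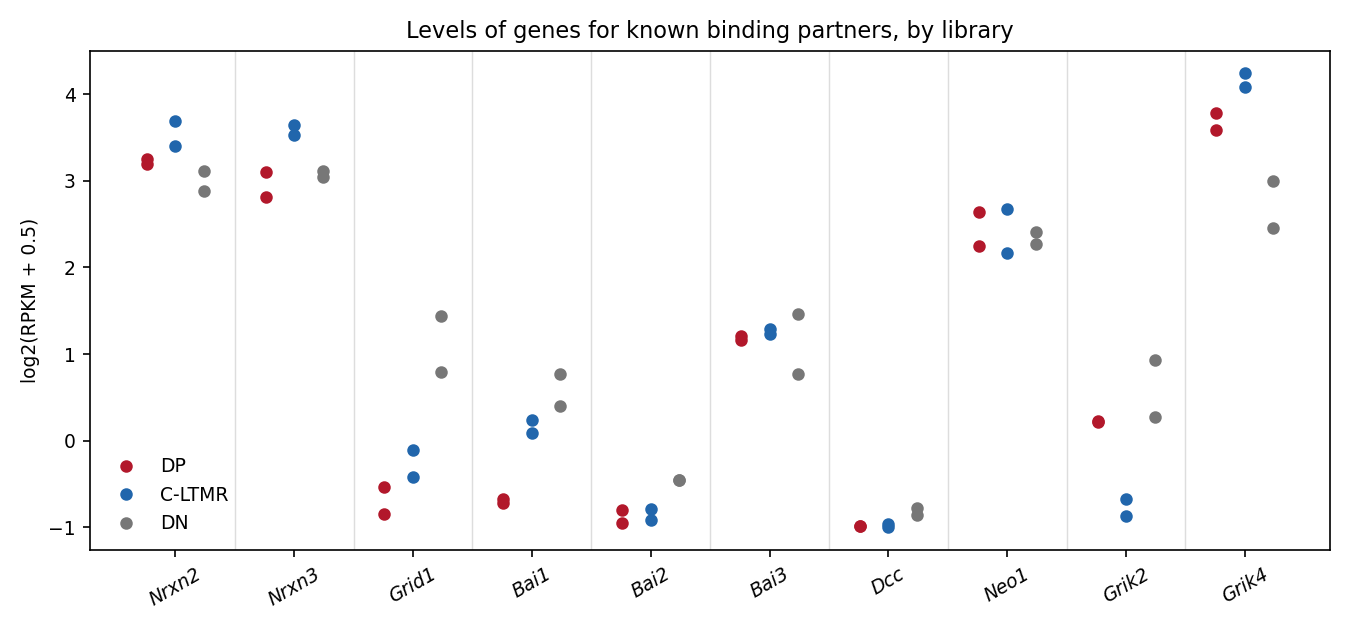
Levels of 10 genes for known binding partners as log2(RPKM + 0.5) (vertical axis), with both libraries of DP, C-LTMR and DN as points. Neo1 lies between 4.003 and 5.89 RPKM in the 6 libraries, while Grid1 is higher in both DN libraries (1.23 and 2.21 RPKM) than in the others.

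Other synapse organizers were read from a list of 50 genes found in the table, 42 of them tested. In DP against C-LTMR, 5 rose and 9 fell (median log2 difference -0.01), beside 4.56% of all genes called higher and 6.77% called lower (median -0.04). The largest rises were those of Flrt3, a ligand of latrophilins (12.8 and 13.1 RPKM in DP against 1.75 and 1.56 RPKM in C-LTMR), Lgi4, a glial secreted protein gene (7.28 and 6.76 RPKM in DP against 0.995 and 1.62 RPKM in C-LTMR), Slitrk4 (3.47 and 3.56 RPKM in DP against 1.15 and 0.582 RPKM in C-LTMR) and Flrt2 (1.86 and 2.13 RPKM in DP against 0.366 and 0.301 RPKM in C-LTMR). The largest falls were those of Lphn1, a latrophilin (1.95 and 2.26 RPKM in DP against 13.4 and 15.3 RPKM in C-LTMR), the pentraxin gene Nptx1 (2.08 and 2.01 RPKM in DP against 8.65 and 9.97 RPKM in C-LTMR), the calsyntenin gene Clstn3 (0.533 and 0.553 RPKM in DP against 2.99 and 3.06 RPKM in C-LTMR) and Lgi2 (0.553 and 0.521 RPKM in DP against 3.20 and 2.46 RPKM in C-LTMR). Limma BH-adjusted p ran from 2.73e-05 for Flrt3 to 0.00153 for Slitrk4. Flrt3 and Lphn1, genes of a ligand and its receptor, lay in opposite directions, a pair picked from the calls. The other latrophilin genes overlapped between the subsets. Lphn3 was at 1.12 and 1.49 RPKM in DP against 1.23 and 1.34 RPKM in C-LTMR. Lphn2 was at 0.382 and 0.434 RPKM in DP against 0.360 and 0.593 RPKM in C-LTMR.

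In DP against DN, 6 organizers rose and 24 fell (median -1.21), beside 6.57% of all genes called higher and 21.4% called lower (median -0.15). In C-LTMR against DN 6 rose and 20 fell (median -1.02), beside 7.26% of all genes called higher and 19.8% called lower (median -0.06). Clstn2, another calsyntenin gene, rose in both: it was at 6.17 and 6.59 RPKM in DP, 11.5 and 12.7 RPKM in C-LTMR, and 0.892 and 0.562 RPKM in DN (log2 difference 2.50, limma BH-adjusted p = 2.74e-05 in DP, and 3.37, limma BH-adjusted p = 9.06e-06 in C-LTMR). Others that rose most in DP were Slitrk4 (2.59), Lrrtm3, a neurexin ligand gene (1.504), and Ptprf, a presynaptic phosphatase gene (1.36). In C-LTMR they were Lgi1 (2.01), Lgi2 (1.72) and Fgf22 (1.47), the last of which lost its call after rescaling to pan-sensory-neuron genes (0.92). The largest falls in DP were those of Sparc (-3.27), Sparcl1 (-2.94), Flrt1 (-2.66) and Clstn3 (-2.35), and in C-LTMR those of Sparc (-3.75), Sparcl1 (-3.33), Lgi4 (-3.24) and Flrt3 (-2.39). Limma BH-adjusted p of these ran from 8.79e-06 for Flrt1 to 0.000660 for Sparc in DP. Some organizers, among them Gpc4, Lrrc4b and Thbs2, passed the filter only through DN and could hardly be called other than lower against it. Sparc was at 84.6 and 114 RPKM in DP, 48.3 and 103 RPKM in C-LTMR, and 678 and 1341 RPKM in DN. Like the glial sum and that of endothelial cells, pericytes and fibroblasts, it was higher in replicate 2 of each subset. The part of these cells' RNA, or of peptidergic neuron RNA, in the falls was not tested.

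Over all genes, the direction of calls moved with the scaling. In DP against C-LTMR 40.3% of calls were higher in DP, and 60.2% after rescaling to pan-sensory-neuron genes. In DP against DN the share was 23.4%, 44.3% under quantile normalization and 14.7% after rescaling. In C-LTMR against DN it was 26.8%, 45.3% under quantile normalization and 10.6% after rescaling. For partners and organizers together, 35.7% of calls were higher in DP against C-LTMR (46.2% rescaled), 18.8% in DP against DN (32.0% quantile, 12.1% rescaled), and 24.1% in C-LTMR against DN (35.0% quantile, 10.3% rescaled).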

How the data were processed

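Total RNA of sorted cells was amplified (amino allyl kit) and sequenced as TruSeq libraries, per the labels' protocols. Per the submitters' processing notes, CASAVA 1.8.2, edgeR 2.6.2 and GRCm38 (mm10) were used; neither their roles nor the annotation or strand setting is stated there. The authors deposited RPKM for 23029 genes and TMM-normalized counts, a normalized signal, for 6620 genes. Levels here are RPKM. The depth was not stated; with GENCODE M21 exons cut to the deposited gene ranges (90.6% of genes), low RPKM values peaked at whole reads. A whole number of reads (tolerance 0.05) fitted 55.0% to 57.5% of such values, too few for a count model.

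Differences came from limma 3.58.1 in R 4.3.3 (lmFit, contrasts.fit, eBayes with trend; 3 residual degrees of freedom) on log2(RPKM + 0.5), all 6 libraries in 1 fit, after checking the code on simulated data. BH adjustment covered all 13478 genes tested. The members and all lists were chosen with earlier results of these data known. Named partners were those called, plus Nrxn2, Nrxn3, Bai3 and Grid1; named organizers were up to 4 a direction by size. Alternatives were pseudocounts 0.1 and 1, 2 other filters, quantile and pan-sensory-neuron scaling, a replicate block, only the 4 libraries compared, each library left out, and the TMM-normalized table as log2(value + 1). Python 3.11.15 was used for the rest. Some partner genes are not reported here, and the partner counts leave them out.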

Additional observations from a re-analysis of the deposited data

How the results depend on the processing

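The differences of C1ql4, Nxph3 and Cbln2 kept their direction under every alternative run in all 3 comparisons, and those of Cbln1 did except in C-LTMR minus DN. With the TMM-normalized table, which lists fewer genes, calls numbered 843 (DP against C-LTMR), 1645 (DP against DN) and 1562 (C-LTMR against DN), against 1527, 3776 and 3650, and partner and organizer calls 5, 14 and 13, against 14, 32 and 29. With 1 library left out, when a lone library is assumed to vary like the others, these counts ran from 1421 to 1534, 3615 to 3995 and 3383 to 3921, and for partners and organizers from 13 to 14, 29 to 33 and 26 to 29. Signs that turned belonged to partners not called: after rescaling to pan-sensory-neuron genes Bai3 (0.20 in DP minus C-LTMR, -0.21 in DP minus DN, -0.41 in C-LTMR minus DN), Nrxn2 (-0.044 in DP minus DN) and Nrxn3 (-0.044 in C-LTMR minus DN); under quantile normalization Bai3 (0.061) in DP minus C-LTMR and Nrxn3 (0.17) in DP minus DN; and on leaving out a library Bai3 in DP minus DN (-0.27 to 0.41) and C-LTMR minus DN (-0.20 to 0.49), and Nrxn3 in DP minus DN (-0.27 to 0.025). The cause was not tested. The median of all genes in DP minus C-LTMR, DP minus DN and C-LTMR minus DN was -0.04, -0.15 and -0.06, against 0.23, -0.43 and -0.61 after rescaling and 0.02, 0.13 and 0.15 under quantile normalization. Replicate numbers are shared between subsets, but nothing in the labels pairs them; deviations of same-numbered libraries correlated at 0.473 (DP and C-LTMR), 0.120 (DP and DN) and 0.319 (C-LTMR and DN) over genes. A replicate block gave 1543, 3784 and 3652 calls and 14, 33 and 29 partner and organizer calls, and it changed no call of a named gene. The 6 low members had at most about 31 reads in any library, so differences among their levels carry large counting error.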

Other observations

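The complement C1q genes, whose products share the globular head with C1q-like and cerebellin proteins, were low in all 3 subsets. C1qb was at 0.661 and 0.811 RPKM in DP, 0.138 and 0.175 RPKM in C-LTMR, and 2.12 and 1.63 RPKM in DN. C1qa was at 0.351 and 0.771 RPKM in DP, 0.0270 and 0.0286 RPKM in C-LTMR, and 0.119 and 0.0573 RPKM in DN. C1qc reached at most 0.297 RPKM, in DP replicate 2. Both C-LTMR libraries had less C1qb than any other library. Their C1qa values were the lowest too, but the reads behind them were not estimated. At such low levels the order of C-LTMR and DN for C1qa is uncertain. The sum of the myeloid markers, which include these genes, was lowest in C-LTMR too. DN, the subset with the least C1ql4, had less C1qa than DP. The part of myeloid RNA in the C1q levels was not tested.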
